A study of Anolis carolinensis with 142 samples.

Results

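The 50 genes described here were higher at Midday than at Midnight in brain, eye and liver of the green anole (*Anolis carolinensis*), a small day-active lizard, and are 50 of 26479 genes in the deposited count table. They were chosen by measured values. Counts were scaled to CPM (a gene's count divided by the library total, times 1000000), and a gene needed a median of at least 1 CPM in each of the 3 tissues, which 11037 genes had. In each tissue the difference of mean log2(CPM + 1), Midday minus Midnight, was divided by its standard error with unequal variances. Of the 11037 genes, 2260 had 3 positive values, and these were ranked by the lowest of the 3, so that rank 1 is the gene whose weakest tissue was still the strongest. The first 50 were kept, and genes are called by their rank below, because the table pairs its gene IDs with no names. The day-night difference in brain, eye and liver is therefore a description and not a finding. Both skins and the gonads took no part in the choice. The ALAN libraries of brain, eye and liver counted towards the median CPM that a gene needed, but took no part in the ranking.

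The lizards were adult, wild-caught in the breeding season, labelled WT, and given 1 of 3 treatments with 4 males and 4 females each. ALAN animals (artificial light at night) were dissected in the hours around midnight under artificial light, and the labels used here give neither its intensity nor its duration. Midday animals were dissected in the early afternoon. Midnight animals were dissected in the dark, in the same hours as the ALAN animals. A red torch was used for the Midnight and the ALAN animals, so its use and the night cannot be told apart in Midday against Midnight. RNA was measured in brain (with the pineal gland), eye, liver, dorsal skin, ventral skin, testes and ovary, with 8 libraries per treatment in the first 5 tissues, except 7 for dorsal skin under ALAN and 7 for ventral skin at Midday, and 4 per treatment in each gonad. The same animals supplied several tissues. These are bulk tissues, in which fewer cells of a type and less RNA per cell cannot be told apart.

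In vertebrates, most cells hold a circadian clock, a loop in which transcription factors switch on genes whose products later switch the same factors off. The clock and the daily cycles of light, temperature, feeding and hormones together make the RNA of many genes rise and fall over a day, usually in a tissue-dependent way, while clock genes themselves cycle in many tissues. In lizards the eyes and the pineal gland both sense light. Which of the 50 genes belong to the clock could not be looked up here.

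Total counts ran from 10257388 to 30952365 per library over the 142 libraries. The libraries fell into 2 counting classes: among counts of at most 20 the share of even ones was 40.5% to 44.4% in 42 libraries and 58.8% to 72.6% in the other 100. Their totals did not overlap either, at 10257388 to 16304907 in the 42 and 17129400 to 30952365 in the 100. Of the 42, 41 filled the first 41 library columns of the deposited table. The class with the low share held no brain library, but all 8 ALAN livers and all 4 ALAN testes, 3 of 4 ALAN ovaries, 5 of 8 ALAN and 1 of 7 Midday ventral skins, 6 of 8 Midday dorsal skins, and 1 of 8 ALAN, 7 of 8 Midday and 7 of 8 Midnight eyes. In liver and testes this class and ALAN cannot be told apart. In addition, 15 libraries stood apart from the rest of their tissue, with a median correlation to the others that was unusually low (by more than 5 median absolute deviations), namely 1 Midnight brain, 3 Midday eyes, 1 ALAN and 1 Midday liver, 1 Midday dorsal skin, 2 Midday and 2 Midnight ventral skins, 1 ALAN testis library, and 2 ALAN and 1 Midnight ovary libraries. Without them the same rule chose 30 of the 50 genes again, including all of ranks 1 to 10. Of the 50, 49 still had 3 positive values and the lowest placed fell to rank 493, so the membership of the later ranks rests partly on those libraries.

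The gene of rank 1, ENSACAG00000004715, has 26 exons on scaffold GL343400.1 (436128 to 468776, minus strand). Rank 2, ENSACAG00000012009, is a short gene of 3 exons on scaffold GL343207.1 (1680007 to 1681252, plus strand). Coordinates are those of the deposited table, whose genome build is not given in the sources used here. Rank 3 lies on chromosome 4 (5473344 to 5488733, minus strand, 3 exons), rank 4 on scaffold GL343679.1 (119574 to 166409, minus strand, 11 exons) and rank 5 on chromosome 2 (126932490 to 126933392, plus strand, 1 exon). Of the others that the results turn on, rank 6 lies on chromosome 3 (28004348 to 28050917, plus strand, 22 exons), rank 7 on chromosome 6 (22568817 to 22580232, minus strand, 11 exons), rank 8 on scaffold GL343686.1 (161389 to 176366, plus strand, 4 exons), rank 14 on chromosome 3 (51710377 to 51713703, plus strand, 2 exons) and rank 37 on scaffold GL343200.1 (3613369 to 3710359, plus strand, 18 exons).

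In the brain, rank 1 had a median of 67.7 CPM (lowest 55.0, highest 79.9) in 8 ALAN libraries, 222.9 CPM (160.9 to 257.4) in 8 Midday libraries and 39.0 CPM (32.6 to 47.8) in 8 Midnight libraries. No 2 of these groups overlapped. In the eye its median was 301.5 CPM (272.5 to 436.3) under ALAN, 529.4 CPM (348.3 to 626.1) at Midday and 194.0 CPM (149.1 to 247.6) at Midnight, where the Midday and Midnight libraries again did not overlap. In the liver it was 28.4 CPM (9.37 to 50.7) under ALAN, 117.7 CPM (89.1 to 194.6) at Midday and 13.5 CPM (9.30 to 33.1) at Midnight. Every Midday liver stood above every ALAN and every Midnight liver, while the ALAN and Midnight livers overlapped.

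Rank 2 was low in brain, with a mean of 2.38 ± 1.05 CPM under ALAN, 3.94 ± 0.54 CPM at Midday and 1.42 ± 0.45 CPM at Midnight (SD, n = 8 each). In the eye it averaged 9.43 ± 6.10 CPM under ALAN, 35.4 ± 22.2 CPM at Midday and 6.53 ± 2.44 CPM at Midnight (SD, n = 8 each). In the liver it averaged 40.5 ± 30.4 CPM under ALAN, 48.9 ± 17.1 CPM at Midday and 7.54 ± 1.60 CPM at Midnight (SD, n = 8 each). Its Midday libraries lay above its Midnight libraries without overlap in all 3 tissues. This held for 8 of the 50 genes in brain (0.401% of all genes tested), 9 in eye (0.243%) and 9 in liver (0.371%). Ranks 1 and 2 were the only members for which it held in all 3, a pattern that the choice itself favours.

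Across the 50 genes the difference of mean log2(CPM + 1), Midday minus Midnight, ran from 0.12 to 2.43 in brain (median 0.31), from 0.14 to 2.11 in eye (median 0.39) and from 0.27 to 3.15 in liver (median 0.69). The largest of a gene's 3 differences was in liver for 43 genes, in eye for 5 and in brain for 2. The choice itself favours this, because it divides each difference by its standard error, so a tissue with more spread needs a larger difference. The mean log2(CPM + 1) over the 50 genes had an SD of 0.04 at Midday and 0.06 at Midnight in brain. In liver the SD was 0.30 at Midday and 0.16 at Midnight. Differences of at least 1 log2 unit were found for 4 genes in brain, 5 in eye and 20 in liver, and for 3 genes in all of them. The smallest differences in brain and eye belonged to rank 25, which had 31.9 ± 2.0 CPM at Midday and 29.4 ± 1.9 CPM at Midnight in brain (SD, n = 8 each). At the other end, rank 7 had 617.4 ± 406.2 CPM at Midday and 62.3 ± 28.6 CPM at Midnight in liver (SD, n = 8 each), the difference of 3.15. Most members thus had small differences in brain and eye, and a few had large ones.

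The edge of the rule was narrow. The lowest of the 3 ratios was 9.60 for rank 1 and 2.14 and 2.13 for ranks 49 and 50, against 2.12 and 2.10 for ranks 51 and 52, which were left out. Rank 49 lies on linkage group f and shares exon bases with another gene, and rank 50 lies on chromosome 2. Rank 49 had 14.9 ± 1.9 CPM at Midday and 12.2 ± 2.2 CPM at Midnight in brain, and rank 51, just outside, had 76.7 ± 6.4 CPM at Midday and 67.4 ± 6.9 CPM at Midnight there (SD, n = 8 each).

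**Figure D1:**
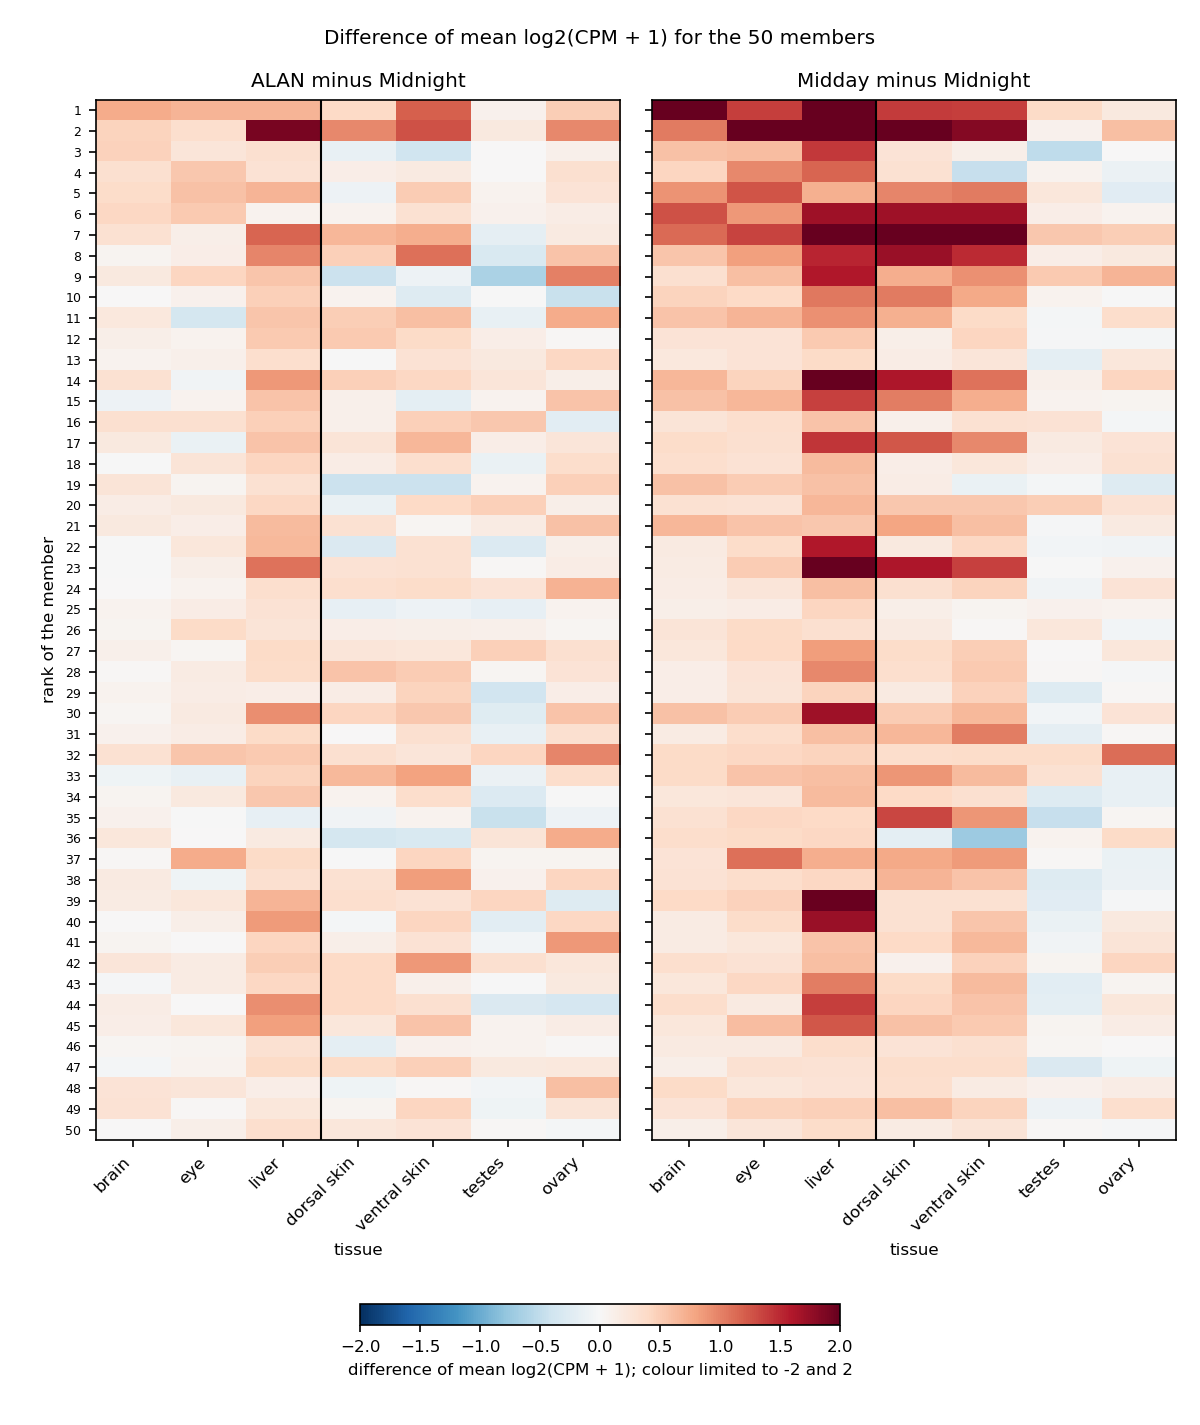
Heat maps of the 50 genes (rows, by rank) in 7 tissues (columns), for ALAN minus Midnight on the left and Midday minus Midnight on the right, coloured by the difference of mean log2(CPM + 1). The black line parts brain, eye and liver, where Midday minus Midnight chose the genes, from the other tissues. In the right panel 47 genes are positive in both skins and the gonad columns are mostly paler than the skin columns. In the left panel most differences are positive. Their median is smaller than in the right panel in every tissue except testes (0.05 against 0.03) and ovary (0.25 against 0.08).

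The skins tested whether the same genes were higher by day in tissues that had no part in the choice. As the same animals supplied several tissues, this was not a test in other lizards. In dorsal skin 48 of the 50 genes had a positive log2 change, Midday minus Midnight, with a median of 0.47, while the median of all 17975 genes tested was -0.0002. Of the 50 genes, 6 passed the test, all higher at Midday (edgeR's quasi-likelihood test, Benjamini-Hochberg adjusted p under 0.05 over all genes of the tissue), where 0.15% of all genes tested were called higher. In ventral skin 47 of the 50 had a positive log2 change, with a median of 0.57 against 0.03 over 17543 genes, and 2 passed, both higher, where 0.0285% of all genes were called higher. At an unadjusted p under 0.05 there were 25 of the 50 genes in dorsal skin, against 10.9% of all genes in either direction, and 35 in ventral skin, against 11.2%. DESeq2 called 14 of the 50 in dorsal skin (1.64% of all genes) and 9 in ventral skin (1.13%). The genes called in ventral skin, ranks 6 and 8, were both among those called in dorsal skin, ranks 2, 6, 7, 8, 14 and 23.

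Rank 8 had a median of 102.6 CPM (68.3 to 113.5) in 7 ALAN dorsal skins, 262.3 CPM (100.8 to 330.0) in 8 Midday dorsal skins and 74.2 CPM (44.2 to 114.0) in 8 Midnight dorsal skins. All but the lowest Midday library lay above every Midnight library, and the log2 change was 1.72 ± 0.21 (SE; edgeR adjusted p = 1.82e-04). In ventral skin its median was 167.9 CPM (105.9 to 248.3) under ALAN, 237.4 CPM (43.7 to 373.3) at Midday and 72.2 CPM (46.5 to 122.2) at Midnight, with a log2 change of 1.68 ± 0.26 for Midday minus Midnight (SE; edgeR adjusted p = 0.00509). The lowest Midday value, below every Midnight library, came from Midday male 2, a library that stood apart from the other ventral skins.

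Rank 6 had a median of 69.0 CPM (9.39 to 137.4) under ALAN, 187.2 CPM (67.4 to 251.3) at Midday and 47.0 CPM (38.7 to 92.0) at Midnight in dorsal skin, a Midday minus Midnight log2 change of 1.74 ± 0.33 (SE; edgeR adjusted p = 0.0210). In ventral skin the 7 Midday libraries held 50.1, 67.1, 137.1, 144.3, 150.1, 158.0 and 182.3 CPM, and the 8 Midnight libraries 26.0 to 48.6 CPM. These groups did not overlap, and the log2 change was 1.78 ± 0.22 (SE; edgeR adjusted p = 1.57e-04). The ALAN ventral skins, at 19.0 to 67.6 CPM, reached into both.

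Rank 2 had a median of 39.0 CPM (32.0 to 110.8) under ALAN, 133.2 CPM (94.7 to 161.9) at Midday and 20.4 CPM (17.7 to 69.4) at Midnight in dorsal skin. The Midday and Midnight libraries did not overlap, and the log2 change was 2.32 ± 0.29 (SE; edgeR adjusted p = 2.08e-04). In ventral skin the log2 change of 1.83 ± 0.36 did not pass the test (SE; edgeR adjusted p = 0.0526), with Midday values of 45.3 to 117.5 CPM and Midnight values of 15.9 to 56.4 CPM. Rank 7, the member with the highest mean CPM, had the largest change of the 50 in dorsal skin, 2.72 ± 0.51 (SE; edgeR adjusted p = 0.0194), with 539.6 to 3814 CPM at Midday and 67.5 to 516.9 CPM at Midnight. Its ventral skin libraries overlapped, at 168.2 to 2600 CPM at Midday and 45.8 to 1033 CPM at Midnight.

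Rank 14 had 155.8 ± 80.8 CPM at Midday and 44.2 ± 10.0 CPM at Midnight in dorsal skin (SD, n = 8 each), a log2 change of 1.86 ± 0.33 (SE; edgeR adjusted p = 0.0140). Rank 23, of 9 exons on chromosome 1 (73687459 to 73733392, minus strand), had 87.9 ± 36.3 CPM at Midday and 27.9 ± 12.3 CPM at Midnight there (SD, n = 8 each), a log2 change of 1.62 ± 0.33 (SE; edgeR adjusted p = 0.0360). When the processing or the libraries kept were varied, the call of rank 23 held under 19 alternatives and was lost under 12. Rank 1 did not pass in either skin. It had 149.6 ± 48.3 CPM at Midday and 62.4 ± 43.3 CPM at Midnight in dorsal skin (SD, n = 8 each; log2 change 1.34 ± 0.34 SE, edgeR adjusted p = 0.133). Its highest Midnight value, 164.4 CPM in Midnight male 4, lay inside the Midday range.

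Every Midday library stood above every Midnight library for 5 of the 50 genes in dorsal skin, which was so for 0.15% of all genes, and for 2 in ventral skin, which was so for 0.0741% of all genes. The genes were ranks 2, 7, 31, 37 and 49 in dorsal skin and ranks 6 and 37 in ventral skin, named here after their values were seen. The next values are differences of mean log2(CPM + 1), not edgeR's log2 changes, which were lowest at -0.31 in dorsal and -0.95 in ventral skin. The difference of means was above 1 log2 unit in both skins for 7 genes, ranks 1, 2, 6, 7, 8, 14 and 23. In 3 genes it was negative in at least 1 skin: rank 4 in ventral skin (-0.46), rank 19 in ventral skin (-0.13) and rank 36 in both (-0.19 in dorsal and -0.72 in ventral skin). Both sexes showed the direction, with 47 genes positive in males and 47 in females in dorsal skin, 44 of them in both, and 47 in males and 45 in females in ventral skin, 44 of them in both.

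The 6 Midday dorsal skins of the low-share counting class and the 8 Midnight dorsal skins of the other class differ in class as well as in time. The mean log2(CPM + 1) over the 50 genes was 5.41 and 5.56 in the 2 Midday libraries of the same class as the Midnight ones, 5.24 to 5.66 in the 6 others and 4.69 to 4.93 at Midnight. With the class as a term, ranks 2 and 8 remained called in dorsal skin, and the changes of ranks 6, 7, 14 and 23, at 1.86, 3.03, 1.98 and 1.19, did not pass. In ventral skin both calls held with the class as a term. Without Midday female 2 or without Midnight male 3, 3 genes were called in dorsal skin in place of 6, and without Midday male 2 or without Midnight female 1, 4 were called in ventral skin in place of 2. Without the libraries that stood apart, 6 were called in dorsal skin and 3 in ventral skin.

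**Figure D2:**
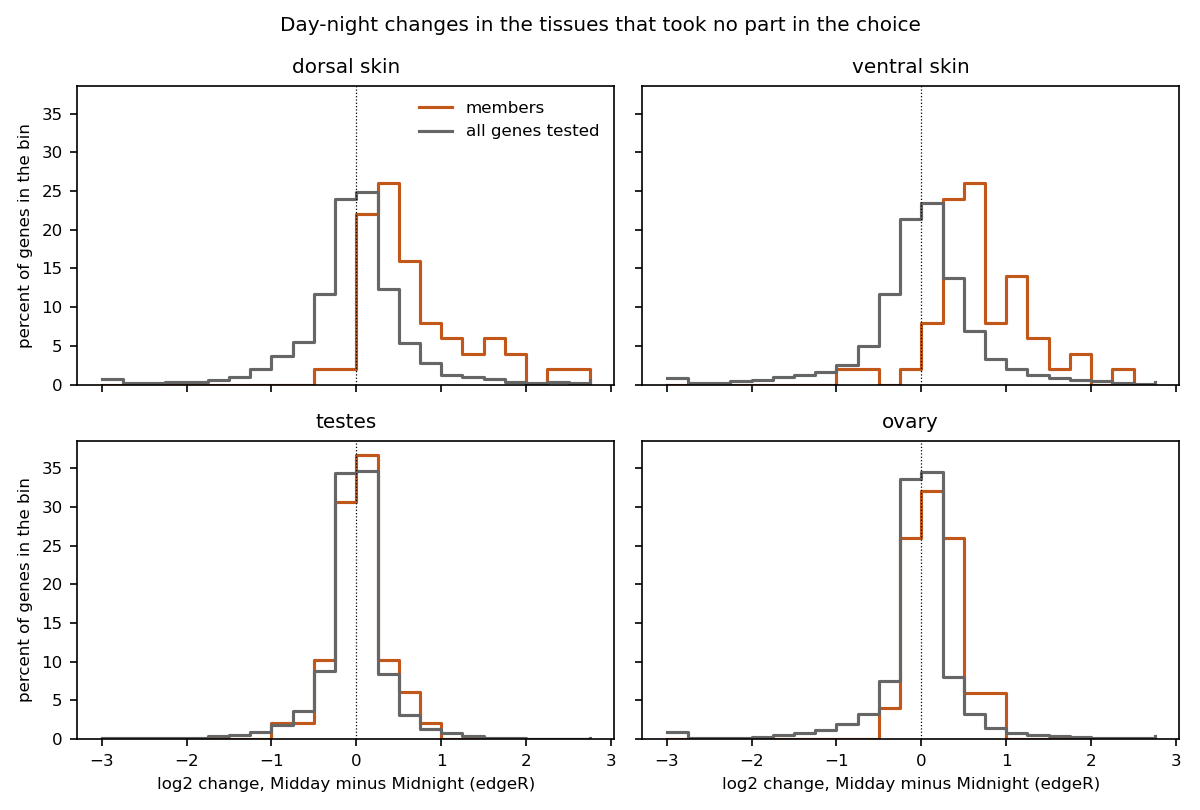
Share of genes in each bin of log2 change, Midday minus Midnight, for the 50 genes (orange) and all genes tested (grey) in 4 tissues, with changes beyond 3 placed in the outer bins. In the skins the orange line lies to the right of the grey one, with medians of 0.47 and 0.57, in testes, with a median of 0.02, 55.1% of the 49 genes tested lie above 0 against 49.1% of all genes, and in ovary, with a median of 0.11, 70.0% against 49.7%.

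In the gonads none of the 50 genes passed between Midday and Midnight by edgeR. In testes, where 49 of them were tested, 27 were positive with a median log2 change of 0.02, 2 were below 0.05 unadjusted and DESeq2 called 0. In ovary 35 of 50 were positive with a median of 0.11, and 0 had an unadjusted p under 0.05 and 0 were called by DESeq2. Over all genes, 0% were called higher in testes and 0% in ovary. In testes 4.73% of all genes were below 0.05 unadjusted and DESeq2 called 0.122%, and in ovary these shares were 3.62% and 0.311%. Each gonad had 4 libraries a group, against 7 or 8 in skin.

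Every Midday library stood above every Midnight library for 3 of 49 genes in testes, which was so for 1.64% of all genes, and for 1 of 50 in ovary, against 1.68%. The genes were ranks 1, 17 and 32 in testes and rank 20 in ovary, named after their values were seen. Rank 1 held 13.9, 21.6, 14.0 and 16.5 CPM at Midday and 11.8, 13.6, 11.3 and 12.6 CPM at Midnight in testes, a log2 change of 0.41 ± 0.21 that did not pass (SE; edgeR adjusted p = 0.9996). For rank 6, called in both skins, the testes held 99.2, 114.9, 86.3 and 110.3 CPM at Midday and 88.5, 120.5, 77.1 and 91.2 CPM at Midnight, and the ovaries held 55.2, 36.0, 37.7 and 34.1 CPM at Midday and 38.6, 50.7, 37.4 and 28.7 CPM at Midnight. Both pairs of groups overlapped, and the log2 changes were 0.11 ± 0.15 and 0.08 ± 0.23 (SE). Rank 2 held 1.95, 2.25, 2.93 and 1.63 CPM at Midday and 1.78, 1.80, 2.25 and 2.13 CPM at Midnight in testes, a log2 change of 0.13 ± 0.25 (SE). In testes it was near the bottom of its range over the tissues.

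The difference itself was tested in a single fit of both skins and both gonads, as the mean change of the skins minus that of the gonads. It was called higher for 5 of the 50 genes, where 0.775% of all 20124 genes were called higher, and the median over the 50 was 0.48 against 0.02 over all genes. The genes were rank 6 (1.66 ± 0.29 SE, adjusted p = 0.00212, edgeR), rank 2 (1.59 ± 0.39, adjusted p = 0.0256), rank 7 (2.03 ± 0.53, adjusted p = 0.0408), rank 31 (0.93 ± 0.23, adjusted p = 0.0256) and rank 37 (0.89 ± 0.22, adjusted p = 0.0313). Rank 31, of 1 exon on chromosome 3 (96689658 to 96690599, plus strand), had 86.1 ± 9.9 CPM at Midday and 54.2 ± 8.2 CPM at Midnight in dorsal skin (SD, n = 8 each), against 3.39 ± 0.86 CPM at Midday and 3.95 ± 0.62 CPM at Midnight in testes (SD, n = 4 each). This fit treated tissues of the same animal as independent. With the counting class as a term ranks 6 and 37 remained called and ranks 2, 7 and 31 did not, and 1 of the 50 genes was called when testes Midday male 4, ventral skin Midday female 3 or dorsal skin Midday female 3 was left out.

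**Figure D3:**
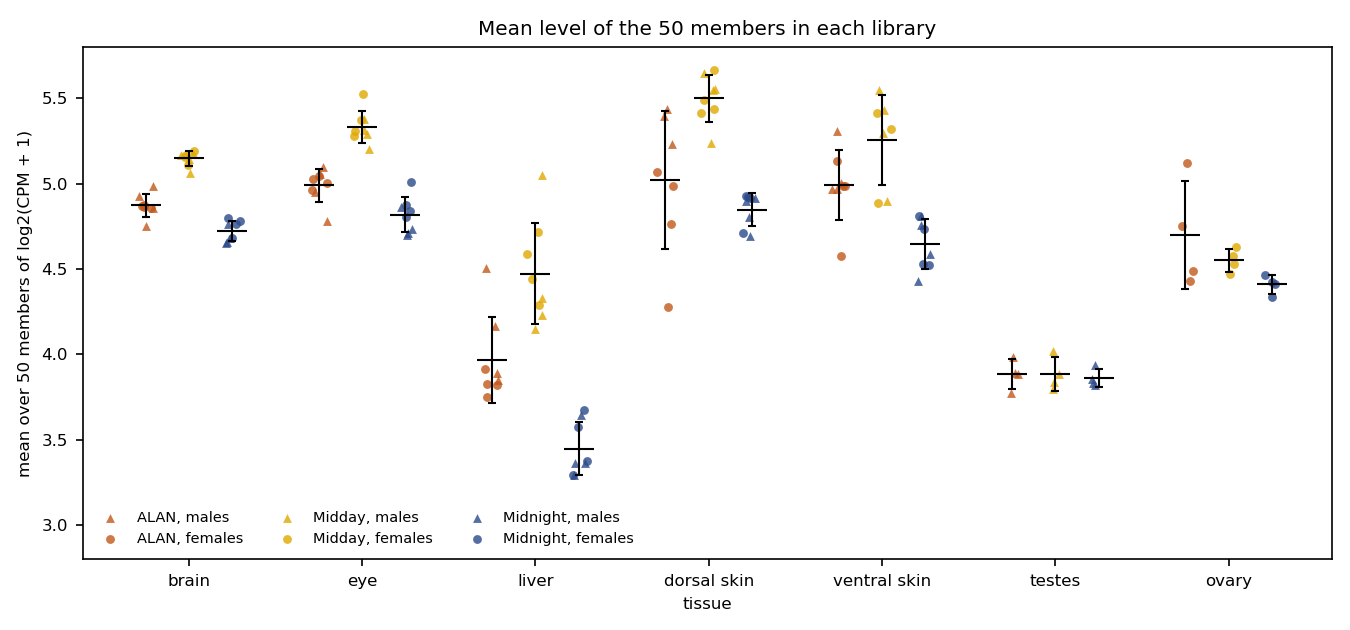
Mean over the 50 genes of log2(CPM + 1) in each of the 142 libraries, by tissue and treatment (triangles are males, circles females; bars are the mean and 1 SD of the group). In both skins every Midday library lies above every Midnight library, and in testes the 3 treatments overlap.

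As a mean over the 50 genes, log2(CPM + 1) was 5.02 ± 0.40 under ALAN (n = 7), 5.50 ± 0.14 at Midday (n = 8) and 4.85 ± 0.10 at Midnight (n = 8) in dorsal skin (SD). In ventral skin it was 4.99 ± 0.20 under ALAN (n = 8), 5.26 ± 0.26 at Midday (n = 7) and 4.65 ± 0.15 at Midnight (n = 8) (SD). The Midday libraries ran from 5.24 to 5.66 and the Midnight libraries from 4.69 to 4.93 in dorsal skin, and from 4.89 to 5.55 at Midday and 4.43 to 4.81 at Midnight in ventral skin, so that neither pair overlapped. In testes the means were 3.88 ± 0.09 under ALAN, 3.88 ± 0.10 at Midday and 3.86 ± 0.05 at Midnight (SD, n = 4 each). In ovary they were 4.70 ± 0.32 under ALAN, 4.55 ± 0.07 at Midday and 4.41 ± 0.05 at Midnight (SD, n = 4 each), with Midday at 4.47 to 4.63 just clear of Midnight at 4.33 to 4.46. The 4 ALAN ovaries held 4.75, 5.12, 4.49 and 4.43, and 2 of them stood apart. Without the highest, ALAN female 2, their mean was 4.56, and ALAN minus Midnight was 0.15 in place of 0.29.

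Light at night was set against the dark night next. In brain, eye and liver the Midnight libraries had helped to choose the genes, so the change from Midnight there is not free of the choice. Of the 50 genes, 1 was called higher under ALAN in brain (0.0698% of all genes called higher), 3 in eye (0.079%) and 1 in liver (0.217%). In the tissues that were free of the choice, 0 were called in dorsal skin (0% of all genes called higher), 2 in ventral skin (0.564%), 0 in testes (0.314%) and 0 in ovary (0%). None was called lower. Few genes of any kind were called lower under ALAN, so a count of 0 does not set the 50 apart. Ventral skin had the most, 238 among 17543 genes tested, which was more than the 99 called higher there. Liver had 22 such genes of 15654 tested, testes 20 of 17213 and eye 13 of 16462. Dorsal skin had 4 of 17975, brain 3 of 17192 and ovary 0 of 16397. In dorsal skin 15 of the 50 were below 0.05 unadjusted, against 11.6% of all genes in either direction, and DESeq2 called 3, against 2.06%. In testes 3 of 49 were below 0.05 unadjusted, against 12.5%, and DESeq2 called 0, against 3.27%. In ovary 9 of 50 were below 0.05 unadjusted, near the 16.2% over all genes, and DESeq2 called 0, against 2.04%. The median log2 change of the 50, ALAN minus Midnight, was 0.10 in brain, 0.16 in eye, 0.31 in liver, 0.35 in dorsal skin, 0.32 in ventral skin, 0.01 in testes and 0.32 in ovary, where all genes had medians from -0.05 to 0.03.

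Rank 1 was called in brain and eye, where the Midnight libraries had helped to choose it. Its brain log2 change, ALAN minus Midnight, was 0.76 ± 0.10 (SE; edgeR adjusted p = 0.00108), with every ALAN brain above every Midnight brain. All 24 brain libraries belonged to the same counting class, so class does not enter this value. In the eye its change was 0.69 ± 0.11 (SE; edgeR adjusted p = 0.00453), and there too the ALAN and Midnight libraries did not overlap. Every ALAN library stood above every Midnight library for 1 of the 50 genes in brain (0.0407% of all genes tested), 1 in eye (0.0364%) and 0 in liver (0.402%). This held for 0 in dorsal skin (0.00556%) and 0 in ventral skin (0.108%). In testes it held for 2 of 49 genes (5.7%) and in ovary for 3 of 50 (3.87%).

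The other 2 calls in the eye, also not free of the choice, were ranks 37 and 4. Rank 37 had a median of 298.0 CPM (203.2 to 423.3) in ALAN eyes, 413.5 CPM (320.7 to 455.5) in Midday eyes and 185.6 CPM (160.5 to 214.4) in Midnight eyes, a log2 change of 0.77 ± 0.11 for ALAN minus Midnight (SE; edgeR adjusted p = 0.00182). Rank 4 had 64.9 CPM (47.4 to 102.7) in ALAN eyes, 87.8 CPM (71.1 to 103.6) in Midday eyes and 46.3 CPM (36.9 to 57.2) in Midnight eyes, a log2 change of 0.58 ± 0.09 (SE; edgeR adjusted p = 0.00261). The ALAN and Midnight eyes of both genes overlapped slightly. With the counting class as a term these changes were 0.59 for rank 1, 0.67 for rank 37 and 0.57 for rank 4, and 0 of the 3 passed.

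Rank 2 was called in liver and ventral skin. In ALAN livers it ran from 6.12 to 85.7 CPM with a median of 28.7, in Midday livers from 33.0 to 78.4 with a median of 41.7, and in Midnight livers from 4.94 to 10.7 with a median of 7.37. The log2 change, ALAN minus Midnight, was 2.10 ± 0.38 (SE; edgeR adjusted p = 0.0108), and 1 ALAN liver lay inside the Midnight range. The 4 ALAN male livers held 34.2, 85.7, 78.6 and 60.8 CPM, and the 4 ALAN female livers 19.3, 16.2, 23.3 and 6.12 CPM. The sexes thus did not overlap under ALAN, whereas they overlapped at Midday and at Midnight. Whether this change differed between the sexes was not tested. In liver the light and the counting class cannot be told apart, and the Midnight livers had helped to choose this gene. In ventral skin rank 2 had 68.6 ± 46.4 CPM under ALAN and 25.5 ± 13.6 CPM at Midnight (SD, n = 8 each), a log2 change of 1.36 ± 0.35 (SE; edgeR adjusted p = 0.0457). Rank 8 had 170.8 ± 55.7 CPM under ALAN and 78.4 ± 24.9 CPM at Midnight there (SD, n = 8 each), a log2 change of 1.12 ± 0.25 (SE; edgeR adjusted p = 0.0273). Neither ventral skin change passed with the class as a term, at 1.45 for rank 2 and 1.09 for rank 8, and neither passed when ALAN female 3, ALAN male 3, ALAN male 4, Midnight female 4 or Midnight male 1 was left out. The call of rank 2 there held under 9 of 31 alternatives. With Midday male 2 left out, 4 of the 50 genes were called.

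The level under ALAN lay mostly between night and day in brain, eye and liver. The mean log2(CPM + 1) under ALAN fell between those of Midday and Midnight for 41 of the 50 genes in brain, 40 in eye and 45 in liver, and the median gene stood at 37.2%, 36.5% and 55.5% of the way from Midnight to Midday. In liver and testes the position under ALAN and the counting class cannot be told apart. The low-share class held 1 of 8 ALAN, 7 of 8 Midday and 7 of 8 Midnight eyes. It was also uneven between treatments in both skins and ovary, and it held no brain library. In dorsal skin 49 genes had a higher mean at Midday, and for 26 of them ALAN lay between, for 10 at or above Midday and for 13 at or below Midnight. The median gene there stood at 29.8% of the way. Without dorsal skin ALAN female 2 these counts were 30, 14 and 5, with the median gene at 41.2%. Without dorsal skin ALAN male 4 they were 26, 6 and 17, with the median gene at 17.5%. In ventral skin ALAN lay between for 30 of 47 genes, at or above Midday for 12 and at or below Midnight for 5. In testes 28 genes had a higher mean at Midday, and ALAN lay between for 8 of them, at or above Midday for 12 and at or below Midnight for 8. In ovary it lay between for 7 of 34 genes, at or above Midday for 25 and at or below Midnight for 2, and the median gene stood at 188.6% of the way. The ovary values depend on which libraries are kept. Without ALAN female 2, a library that stood apart, ALAN lay between for 15 genes, at or above Midday for 13 and at or below Midnight for 6. The median gene then stood at 83.0% of the way. Without all ovary libraries that stood apart, which left 2 ALAN ovaries, 30 genes had a higher mean at Midday. ALAN lay between for 5 of these, at or above Midday for 20 and at or below Midnight for 5, with the median gene at 120.8% of the way. Without the libraries that stood apart, ALAN lay at or above Midday for 4 genes in dorsal skin and 3 in ventral skin, in place of 10 and 12. The distances are descriptions, since in the first 3 tissues both ends were chosen to be apart, and they share the Midnight libraries.

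Single genes stood at different points of that way. In brain, rank 1 under ALAN stood at 30.6% of the way from Midnight to Midday, rank 3 at 77.5% and rank 4 at 73.3%. Rank 3 had 12.7 ± 1.7 CPM in ALAN, 14.0 ± 1.9 CPM in Midday and 9.03 ± 1.75 CPM in Midnight brains (SD, n = 8 each), and its change from Midnight did not pass (adjusted p = 0.0582, edgeR). Rank 5, present at only a few CPM, had 5.36 ± 0.81 CPM in ALAN, 8.12 ± 0.73 CPM in Midday and 3.96 ± 0.90 CPM in Midnight brains (SD, n = 8 each). Rank 6 stood close to the Midnight level in liver, with 18.7 ± 8.2 CPM under ALAN, 59.4 ± 20.6 CPM at Midday and 17.9 ± 7.9 CPM at Midnight (SD, n = 8 each), and further up in the eye, with 220.5 ± 18.4 CPM under ALAN, 290.5 ± 80.3 CPM at Midday and 158.4 ± 40.4 CPM at Midnight (SD, n = 8 each).

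The ALAN libraries of dorsal skin spread widely. The mean over the 50 genes was 5.23 to 5.44 in the 3 ALAN males and 4.28 to 5.07 in the 4 ALAN females, so the sexes did not overlap there, whereas they overlapped at Midday and at Midnight. For 11 of the 50 genes all 3 ALAN males stood above all 4 ALAN females, a larger share than the 12.1% of all genes tested. For 0 of the 50 all males stood below, against 1.59% of all genes. In ventral skin under ALAN the same count was 1 gene above, against 1.09%, and 0 below, against 0.901%. In liver under ALAN it was 6 genes above, against 2.79%, and 0 below, against 3.3%. The brain had 1 gene above, against 2.33%, and 1 below, against 1.96%. The eye had 1 above, against 1.42%, and 3 below, against 4.7%. Whether the sexes responded differently to light was not tested for these genes.

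**Figure D4:**
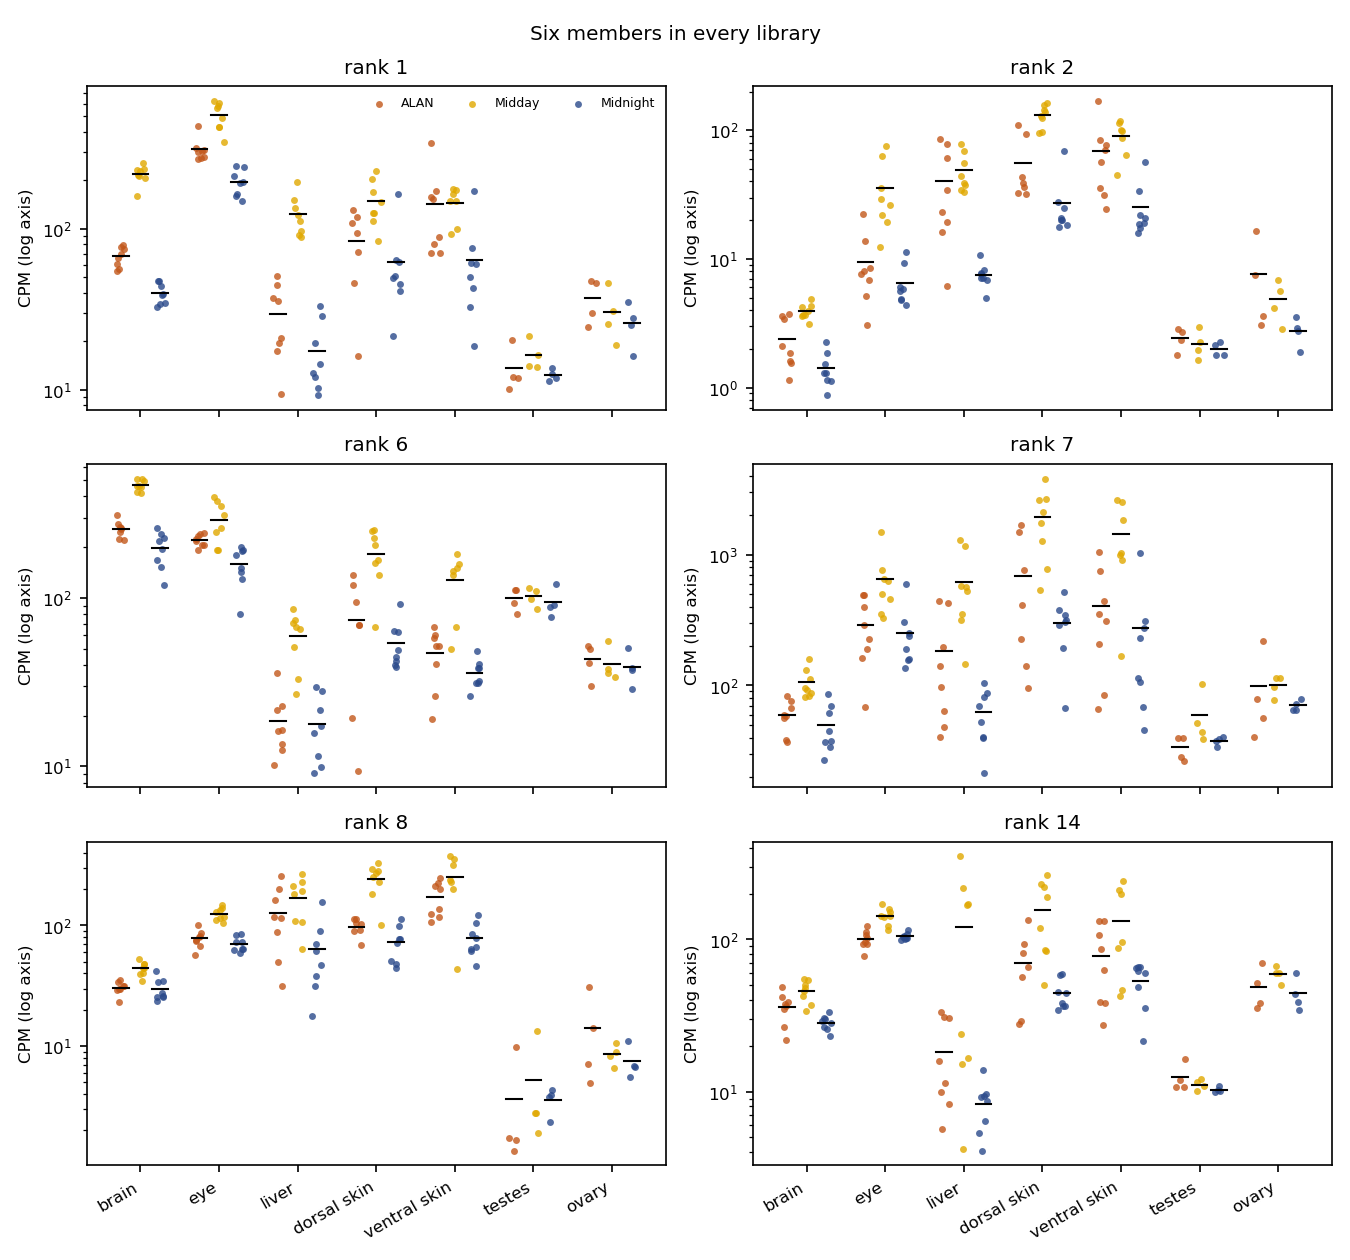
CPM (log axis) of ranks 1, 2, 6, 7, 8 and 14 in every library, by tissue, with ALAN, Midday and Midnight from left to right and a bar at each group's mean. Rank 1 separates the 3 treatments in brain, and ranks 6 and 8 show higher Midday than Midnight levels in both skins and overlapping groups in testes.

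Males and females were compared in the same fits. Of the 50 genes, 0 passed the test between the sexes in brain (1.26% of all genes called higher in males and 1.22% lower), 1 was higher in males in eye (1.42% higher, 1.31% lower), 3 were higher and 1 lower in liver (7.4% higher, 6.17% lower), 0 in dorsal skin (2.68% higher, 1.22% lower) and 0 in ventral skin (0.0171% higher, 0.188% lower). Below 0.05 unadjusted were 3 of the 50 in brain (13.3% of all genes), 8 in dorsal skin (17.2%) and 5 in ventral skin (13.0%). DESeq2 called 0 of the 50 in brain (3.31% of all genes), 1 in dorsal skin (6.83%) and 0 in ventral skin (2.2%). In liver neither count of the 50 genes was larger than the share over all genes gives.

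Rank 30, on scaffold GL343604.1 (328829 to 350573, plus strand, 5 exons), had a median of 10.6 CPM (2.52 to 37.1) in 12 male livers and 4.27 CPM (1.80 to 17.5) in 12 female livers, a log2 change of 1.35 ± 0.31, male minus female (SE; edgeR adjusted p = 0.00512). Rank 45, on chromosome 1 (132655897 to 132665039, minus strand, 4 exons), had 7.26 CPM (2.73 to 29.7) in male and 3.88 CPM (2.00 to 9.80) in female livers, a log2 change of 0.87 ± 0.21 (SE; edgeR adjusted p = 0.00708). Rank 34 had 250.7 CPM (129.8 to 366.8) in male and 142.5 CPM (91.1 to 290.7) in female livers, a log2 change of 0.69 ± 0.18 (SE; edgeR adjusted p = 0.0137). The sexes overlapped for all of them. Rank 43, on scaffold GL343553.1 (396002 to 448345, plus strand, 7 exons), was lower in males in liver (log2 change -0.55 ± 0.12) and higher in males in eye (0.34 ± 0.09; SE, adjusted p = 0.00417 and 0.0418, edgeR), and was named after its values were seen. The eye value of rank 43 kept its call under 14 of 30 alternatives.

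Levels of the genes covered a wide range. Per kilobase of exon, rank 34 was the most abundant, with a mean over the 142 libraries of 298.6 CPM per kilobase, and rank 26 the least, with 3.09 CPM per kilobase. By tissue, rank 34 was the highest of the 50 everywhere but in testes, where it had 49.2 CPM per kilobase and rank 28 had 156.0. Rank 26 was the lowest in liver and both skins, rank 30 in brain and eye, rank 5 in testes (0.275 CPM per kilobase) and rank 48 in ovary (0.987). Rank 7 had 121.2 CPM per kilobase and rank 5 had 5.95. In CPM, rank 34 (chromosome 5, 24911742 to 24913164, plus strand, 2 exons) was highest in ventral skin at 581.5 CPM and lowest in testes at 58.9 CPM, and rank 7 was highest in dorsal skin at 990.2 CPM and lowest in testes at 43.7 CPM. Rank 26 (chromosome 6, 60730747 to 60736796, plus strand, 6 exons) was highest in ovary at 8.97 CPM, where the Midday and Midnight libraries overlapped, and it shares exon bases with another gene. Rank 5 was highest in ventral skin at 10.5 CPM and lowest in testes at 0.249 CPM, where it failed the filter on low counts and was the member not tested. The tissue of the highest mean was dorsal skin for 12 genes, brain for 10, ventral skin for 8, testes for 7, ovary for 6, eye for 5 and liver for 2.

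The 50 genes were spread over the genome much as the 11037 genes from which they came. They lay on chromosomes 1 to 6 in 48.0% of cases against 49.6% of those genes, and on unplaced scaffolds in 50.0% against 48.8%, with 25 genes on 25 scaffolds. The median of the summed exon length of a gene was 1772 bases against 1927, their median number of exons 5.5 against 9, and their median level 36.7 against 34.0 CPM. The plus strand held 64.0% of them against 50.8%. These are descriptions without a test.

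A pair of neighbours was found on chromosome 1, where ranks 22 (146232279 to 146258714, minus strand, 3 exons) and 40 (146230751 to 146232258, plus strand, 2 exons) point towards each other with 20 bases between their 3′ ends. Over the 142 libraries their deviations from the mean of their tissue, treatment and sex had a correlation of 0.87, where the median of all pairs of the 50 genes was 0.15. Whether the counting used the strand is not given in the sources used here, so reads at such close ends cannot be assigned with certainty. Ranks 26 and 16 lie 21165 bases apart on chromosome 6, both on the plus strand, with a correlation of 0.54. The points of such a correlation share library depth and the same animals. Ranks 26, 48 and 49 share exon bases with another gene. For ranks 26 and 49 that gene lies on the other strand, and for rank 48 on the same strand, where knowing the strand would not part the reads.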

How the data were processed

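Sequencing of RNA from 142 tissue samples gave the table used here, which holds raw counts per gene as the authors deposited them. The submitters' processing notes name Trimmomatic and FastQC, STAR 2.7.11a, and featureCounts with Subread. The genome build, the annotation release and the settings for strand and multi-mapped reads are not given in those sources. None of the gene IDs (0) was found among the 27148 rows of the RefSeq table for assembly rAnoCar3.1, so planned gene lists, tissue markers and motifs were not run and the tissue labels were not checked against markers.

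The members and lists were chosen with earlier results of these data known. Each tissue was fitted with edgeR 4.0.16 (R 4.3.3): TMM, filterByExpr, a robust quasi-likelihood fit with treatment and sex as terms (treatment alone in gonads), Benjamini-Hochberg adjustment over the genes of the tissue, and calls at an adjusted p under 0.05. Skins and gonads shared a fit with a mean per tissue, treatment and sex. The fits were tested on simulated data. Levels are CPM, and rule values use log2(CPM + 1). Depth limits only the counting error: the counts of the 50 genes had medians of 260.5 to 685 per tissue. The lowest single count was 1 in testes, 9 in liver, 10 in ovary and 14 to 20 in the other tissues. Libraries of a group came from separate lizards.

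Named genes were ranks 1 to 5, those at the edge, up to 5 called in skins or gonads, up to 6 called under ALAN, up to 3 called lower by day (there were 0), 2 at each end of mean CPM, and up to 3 called higher in males or females. Ranks 16, 17, 19, 20, 22, 23, 25, 28, 31, 32, 36, 40, 43 and 48 fall outside this rule and were named after their values were seen. Alternatives were RLE size factors, no filter, DESeq2 1.42.0, a block for replicate number, no sex term, 2 groups alone, the counting class as a term, 25 and 100 members, each library left out and, for the rule, TMM scaling (42 of 50 chosen). The rule without libraries that stand apart, the direction by sex in the skins, and the level under ALAN relative to Midday and Midnight with libraries left out were added after seeing the data. Python 3.11.15, pandas 2.3.3 and matplotlib 3.10.9 were used.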

Additional observations from a re-analysis of the deposited data

Results flagged for a closer look

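In the 21 groups of libraries, 3 measures each were examined (63 in all): the mean over the 50 genes, rank 1 and rank 2. A library lay far from the others 9 times, in 4 of the groups. The limit used gives about 1 in 20 by chance only for independent, normally distributed values. Ranks 1 and 2 belong to the 50 genes, so the 3 measures are not independent, and the 9 are not compared with chance. The mean log2(CPM + 1) over the 50 genes was 4.78 in eye ALAN male 1, against 4.95 in the nearest ALAN eye, and 4.58 in ventral skin ALAN female 2, against 4.97 in the nearest. Rank 1 was at 436.3 CPM in eye ALAN female 1 (nearest 319.1) and at 341.7 CPM in ventral skin ALAN female 3 (nearest 172.3). Rank 2 was at 169.8 CPM in ventral skin ALAN male 2 (nearest 84.0). Midnight male 4 was high for both genes in both skins: rank 1 was at 164.4 CPM in dorsal skin (nearest Midnight library 63.7) and 171.4 CPM in ventral skin (nearest 76.0), and rank 2 at 69.4 CPM in dorsal skin (nearest 27.7) and 56.4 CPM in ventral skin (nearest 33.9). The labels number the libraries of each tissue and do not state that Midnight male 4 is the same animal in both. The ventral skin library of Midnight male 4 is among those that stood apart, and the dorsal one is not.

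For 5 genes the day-night log2 change of the skins exceeded that of the gonads by the test of the difference itself: 1.59 for rank 2, 1.66 for rank 6, 2.03 for rank 7, 0.93 for rank 31 and 0.89 for rank 37. What these differences come from was not tested.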

How the results depend on the processing

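For Midday against Midnight in dorsal skin (6 of the 50 genes called) DESeq2 called 14 (1.64% of all genes), the replicate block 2 and the counting class as a term 2, and 3 to 7 with single libraries left out. In ventral skin (2) DESeq2 called 9 (1.13%), and 2 to 4 with single libraries left out. For skin minus gonads (5) DESeq2 called 9 (1.91%), the class term 2, the first 25 members 3, and 1 to 6 without single libraries. For ALAN against Midnight, brain (1) gave 2 without the libraries that stand apart and 2 with 100 members, DESeq2 5 (0.396%), and 1 to 2 without single libraries. Eye (3) gave 5 with DESeq2 (0.844%) and 0 with the class term. Liver (1) gave 2 with 100 members. Dorsal skin (0) gave 3 with DESeq2 (2.06%) and 0 to 1 without single libraries, the 1 without Midnight male 4. Ventral skin (2) gave 1 with RLE size factors, 1 with no filter and 1 with the 2 groups alone, 5 with DESeq2 (5.57%), 0 with the class term, and 0 to 4 without single libraries. Genes called by sex in at least 1 tissue (4) were 9 with DESeq2 (2.2% to 18.0% of all genes by tissue), 0 among 25 and 14 among 100 members, and 4 to 6 without single libraries. The median for ALAN against Midnight in testes was -0.031 with 100 members. Apart from the constructions that test fewer or more genes, the cause was not tested.

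Of 25 called changes, 761 alternatives kept the direction and the call, 118 kept the direction and lost the call, and 0 turned the sign. The replicate block ended the calls of ranks 6, 7, 14 and 23 in dorsal skin, rank 7 in skin minus gonads and rank 43 in eye, and no other call. Each animal had 1 treatment, so equal numbers under different treatments do not mark the same animal. Same-numbered libraries correlated above 0.1 in 4 of 24 pairs in brain and, at most, in 13 of 22 in ventral skin. In ventral skin the mean correlation was 0.12 for same numbers and -0.04 for other numbers. Whether the numbers mark something else that the libraries share was not tested.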
